A study of Homo sapiens with 2 samples.

Results

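The Notch pathway genes described here were NOTCH1, NOTCH2, NOTCH3, JAG1, JAG2, DLL1, LFNG, HES1, HEY1 and NRARP, taken by gene symbol. All 10 were found among the 26255 symbols of the 2 deposited tables. RNA was sequenced from OVSAHO, a human serous ovarian cancer cell line, with 1 library per group. In the perturbed culture, SMARCA2 was labelled stable and SMARCA4 was labelled as knocked down, and the series text describes raised SMARCA2 and lowered SMARCA4 (OVSAHO-A2-siA4). The control culture was labelled WT (OVSAHO-Ctrl-siNC). Both cultures were exposed to 25 µM carboplatin, a DNA-crosslinking drug, for 2 days, so no untreated culture enters any value below. The labels do not say whether the numbers in the sample titles are clone numbers.

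Notch receptors are membrane proteins that are activated by ligands of the Jagged and Delta families on neighbouring cells. Cleavage by an ADAM protease and then by gamma-secretase frees the intracellular domain, which joins the DNA-binding protein RBPJ and Mastermind-like coactivators in the nucleus. Without that domain, RBPJ sits with corepressors. Genes of the HES and HEY families encode repressors and are the usual direct readout. NRARP encodes a short feedback inhibitor. SMARCA2 and SMARCA4 are the alternative ATPases of the SWI/SNF chromatin remodelling complex.

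The promoters of 3 members are shown because HES1 was the member more than 2-fold higher in the perturbed library by the rule given below, JAG1 lay next below it and NRARP had the largest FPKM ratio. Each line gives the 250 bases before the gene's start on the gene's own strand, from RefSeq on GRCh38.p14, which is another build than the hg19 of the deposited tables. Capitals mark TGGGAA, the core of the RBPJ binding motif, searched on both strands.
HES1 (chr3:194135898-194136147, plus strand): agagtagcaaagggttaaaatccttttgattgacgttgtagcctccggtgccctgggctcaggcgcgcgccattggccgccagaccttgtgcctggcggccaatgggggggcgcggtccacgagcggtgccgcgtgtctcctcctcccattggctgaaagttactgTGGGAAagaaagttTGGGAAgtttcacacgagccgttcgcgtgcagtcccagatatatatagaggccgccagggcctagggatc
JAG1 (chr20:10674000-10674249, minus strand): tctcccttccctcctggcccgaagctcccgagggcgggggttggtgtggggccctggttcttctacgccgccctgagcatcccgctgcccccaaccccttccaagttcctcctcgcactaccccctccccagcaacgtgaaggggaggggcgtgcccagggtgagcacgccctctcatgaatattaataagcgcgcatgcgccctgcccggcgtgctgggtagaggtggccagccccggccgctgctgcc
NRARP (chr9:137302272-137302521, minus strand): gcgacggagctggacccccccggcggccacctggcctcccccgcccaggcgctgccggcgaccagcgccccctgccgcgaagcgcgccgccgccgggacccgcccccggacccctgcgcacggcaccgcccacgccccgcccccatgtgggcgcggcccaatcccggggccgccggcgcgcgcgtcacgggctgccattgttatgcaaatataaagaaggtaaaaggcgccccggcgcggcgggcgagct

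The HES1 promoter held 2 copies of TGGGAA, starting 84 and 70 bases before the gene's start, both on the gene's strand. Of 35116 RefSeq promoter windows of the same length, 20.8% held at least 1 copy and 2.90% held 2 or more. The HES1 window also held 3 matches to CACNAG, the N box that HES proteins are known to bind. Of all windows, 32.04% held at least 1 match to it and 6.32% held 2 or more. The JAG1 and NRARP windows held neither motif, which says only that these letters are not in these 250 bases. Promoters of 8 members were matched. HEY1, whose chromosome was left out of the member search, and DLL1, which had no promoter entry, are not among them. The sequence before HES1 is therefore not compared with that before HEY1. LFNG has 2 windows, 1 of them with a copy of TGGGAA, and those of NOTCH1, NOTCH2, NOTCH3 and JAG2 held none. A match is a description of the sequence, not a measurement of binding.

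FPKM, the deposited unit, scales a gene's fragments by transcript length and by the fragments mapped in that library. With 1 library per group there is no between-culture error and no test, and each difference is between these 2 libraries. The rule of size asked for 1 FPKM in a library and a 2-fold difference after 1 FPKM was added to each value. Genes with a log2 ratio of 1 or more, perturbed over control, count as higher, and those at -1 or below as lower. In bulk RNA, a difference in every cell and one in part of the cells cannot be told apart. Folds are ratios of FPKM without the pseudocount of 1. Their 95% exact binomial intervals come from estimated fragments and cover counting error only. The estimated depth was 8850000 fragments in the perturbed library and 9050000 in the control. As a check of the labels, SMARCA2 had 2.60 FPKM in perturbed cells, against 0.205 in control cells, and SMARCA4 had 4.49 against 27.9 FPKM. The abundant genes GAPDH and ACTB were at 4067 and 2339 FPKM in perturbed cells, against 4310 and 3257 FPKM in control cells. Of 8 ovarian carcinoma and epithelial markers, 7 reached 1 FPKM in each library, and MUC16 was at 0 in perturbed cells and 0.0608 FPKM in control cells. The 8 summed to 1076 FPKM in perturbed cells and 1542 in control cells, with KRT7 lower (119 and 540 FPKM), WT1 higher (5.52 and 1.53 FPKM) and PAX8 at 42.1 and 21.9 FPKM. All 4 endothelial and all 5 fibroblast markers were under 1 FPKM in both libraries. Of the leukocyte markers, PTPRC and CD3E were at 0 in both, whereas CD68 was at 11.1 FPKM in perturbed cells and 34.9 in control cells. The part of these differences in the Notch values was not tested.

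HES1 was the only member past the rule. Of the 10 members, 7 reached 1 FPKM in a library, and 1 of those 7 was higher, none was lower and 6 lay within 2-fold. Over all 11785 genes tested by the same rule, 7.85% were higher and 7.61% were lower, 925 and 897 genes. With the libraries scaled to a common sum these counts were 1257 and 685, of 12020 genes then tested. With ratios centred on their median they were 1158 and 684 of 11785. A ratio above 0 was seen in 9 of 10 members, with either scaling too, but in 4 of 10 once trends of the ratio with length, base composition and level were removed. Among the 7 tested members it was 6, against 46.5% of all tested genes. The share was 51.6% of all genes detected in a library and 65.3% of genes with a mean of 0.3 to 1 FPKM, the class that holds 5 of the members. The members' median log2 ratio was 0.50 as reported and -0.04 with trends removed, against -0.06 and -0.08 over all tested genes. With the common sum the median of the same 11785 genes was 0.06 and that of the members 0.59.

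**Figure D1:**
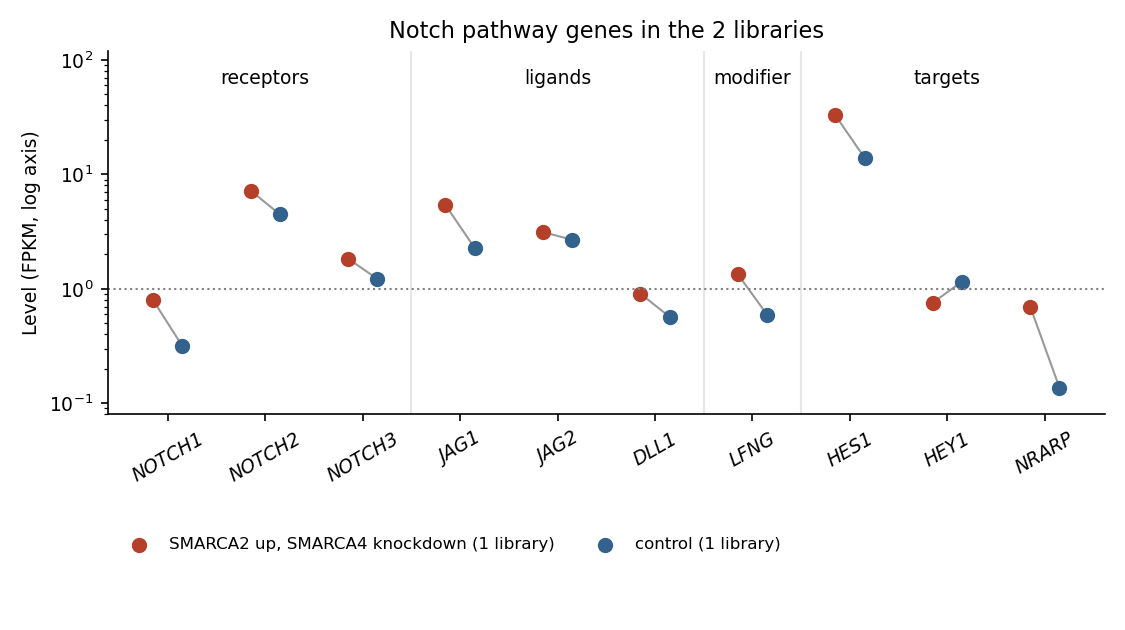
Levels of the 10 Notch genes in FPKM on a log axis, with a point for the perturbed library on the left and a point for the control on the right of each pair, grouped by role. The dotted line marks 1 FPKM, and the HEY1 pair alone has its control point above its perturbed point.

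Among the receptors, NOTCH2 was the most abundant. It was at 7.21 FPKM in perturbed cells and 4.47 in control cells, a ratio of 1.61 (1.43 to 1.82), and was within 2-fold by the rule. It made up 72.9% of the summed FPKM of NOTCH1 to NOTCH4 in the perturbed library and 73.8% in the control. The table lists a partial copy of this gene, NOTCH2NL, separately at 15.7 and 18.8 FPKM, and the sources used here do not give how reads shared by both were assigned. The NOTCH2 level is therefore uncertain.

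NOTCH3 was at 1.84 FPKM in perturbed cells and 1.22 in control cells, a ratio of 1.504 (1.15 to 1.97). NOTCH1 stayed under 1 FPKM, with 0.794 FPKM in perturbed and 0.316 FPKM in control cells, a ratio of 2.52 (1.57 to 4.14) on about 64 and 26 fragments. Its log2 ratio was 1.33 without the pseudocount and 0.45 with it. NOTCH4, a receptor known mainly from endothelium and not a member, rested on about 3 fragments in each library. By the listed values the receptor level lay mostly in NOTCH2, with the uncertainty from NOTCH2NL given above. The 3 member receptors were each higher in FPKM in the perturbed library. With trends removed all 3 had a log2 ratio below 0, but NOTCH2, at -0.06, lay just above the median of -0.08 over all genes fitted.

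**Figure D2:**
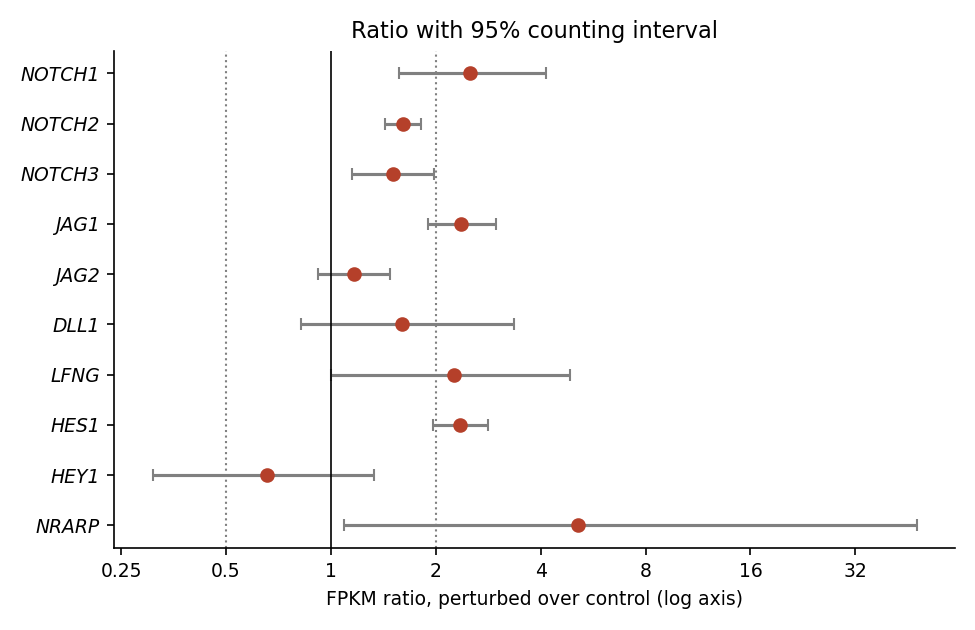
FPKM ratio of each Notch gene, perturbed over control, on a log axis, with bars for the 95% interval of counting error. Dotted lines mark 2-fold in either direction, the interval is narrowest for NOTCH2, and those of JAG2, DLL1 and HEY1 include a ratio of 1.

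The ligands differed among themselves. JAG1, the Jagged ligand linked to many epithelial Notch responses, was at 5.38 FPKM in perturbed cells and 2.27 in control cells, a ratio of 2.37 (1.91 to 2.97). Its log2 ratio was 0.96, just inside the rule, and it was past it at 1.06 and 1.09 with the centring and the common sum, but at 0.51 with a pseudocount of 5 FPKM and 0.66 with trends removed. JAG2, the other Jagged ligand, was at 3.13 and 2.68 FPKM, a ratio of 1.17 (0.919 to 1.48). JAG1 was therefore above JAG2 in the perturbed library and below it in the control, where their counting intervals overlapped. An annotated gene on the opposite strand overlaps an exon of JAG1, and the library kit does not mark strand, so the 2 cannot be told apart in these values. JAG2 is overlapped by an annotated gene on its own strand. The same limit applies to ADAM10, SPEN, SNW1, CCND1, DTX2 and DLK2, named below, each of which has an exon overlapped by a gene on the opposite strand.

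DLL1, a Delta ligand, stayed under 1 FPKM, with 0.907 FPKM in perturbed and 0.568 FPKM in control cells (ratio 1.60, 0.823 to 3.35). The most abundant ligand gene was outside the 10 members. DLL3, an atypical Delta ligand known to act inside the signal-sending cell rather than to activate receptors, was at 27.3 FPKM in perturbed cells and 36.5 in control cells. It took 73.5% of the summed FPKM of the 5 ligand genes in the perturbed library and 85.6% in the control, while JAG1 took 14.5% and 5.32%. DLL4 was at 0.421 and 0.652 FPKM.

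LFNG, the Golgi fringe enzyme that extends O-fucose on Notch and so shifts its ligand preference, was at 1.34 FPKM in perturbed cells and 0.595 in control cells. The ratio was 2.25, with an interval from 1.001 to 4.86, and the log2 ratio 0.55. A related enzyme that is no member, RFNG, was at 15.8 and 4.48 FPKM, 3.53-fold higher (2.67 to 4.72). The third fringe gene, MFNG, was listed at 0 in perturbed cells and had 0.362 FPKM in control cells. RFNG was thus the most abundant fringe transcript in both libraries, and an exon of the opposite-strand gene GPS1 overlaps it.

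HES1, a basic helix-loop-helix repressor and the best known Notch target, was at 32.8 FPKM in perturbed cells and 13.9 in control cells. It was 2.35-fold higher (1.96 to 2.82), on about 400 and 174 fragments, with a log2 ratio of 1.18. It was the most abundant member in each library, and its counting interval did not overlap that of the next member, NOTCH2, in either. Among alternatives its log2 ratio ran from 0.997, just under the limit, with a pseudocount of 5 FPKM to 1.35 with trends removed.

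The other targets did not follow 1 pattern. HEY1, a related repressor, was at 0.755 FPKM in perturbed cells and 1.15 in control cells, a ratio of 0.654 (0.308 to 1.33) on about 14 and 22 fragments. It was the single member whose ratio was below 0 on the log2 scale. NRARP was at 0.700 and 0.137 FPKM, a ratio of 5.11, the largest of the members. This rested on about 10 and 2 fragments, with an interval of 1.09 to 48.0, and the log2 ratio with the pseudocount was 0.58. The NRARP values stood in a ratio of 5 to 1 in whole fragments within 0.00031 on the log2 scale, a ratio that other fragment numbers would give too, so the 10 and 2 depend on the transcript length assumed.

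The order of the members by level was much alike in the libraries for the abundant genes. HES1, NOTCH2, JAG1, JAG2 and NOTCH3 held the first 5 places in the perturbed library, and JAG2 and JAG1 changed places in the control. From NOTCH3 down to NRARP each member's exact Poisson interval overlapped that of the next one, in both libraries, so neighbours there are not told apart at this depth. The interval of NOTCH3 lay clear of that of NOTCH1 in both. HEY1 was in place 9 in the perturbed library and in place 6 in the control.

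The ratio moved with transcript length across the whole table. Tested genes with transcripts of 8000 bases or more had a median log2 ratio of 0.54, and 73.5% of them were above 0. Those of 5000 to 8000 bases had a median of 0.30, and those of 1500 to 3000 bases a median of -0.20. NOTCH2 (11389 bases, log2 ratio 0.59) and NOTCH3 (8666 bases, 0.35) lay near the median of the longest class. JAG1 (5940 bases) at 0.96 lay above the median of its class. HES1 (1578 bases) at 1.18 lay above that of its own, in which 5.71% of genes were higher by the rule. JAG2 at 0.17, in the class of JAG1, and HEY1 at -0.30, in that of HES1, lay below the class median. LFNG at 0.55, also in the class of HES1, lay above it.

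**Figure D3:**
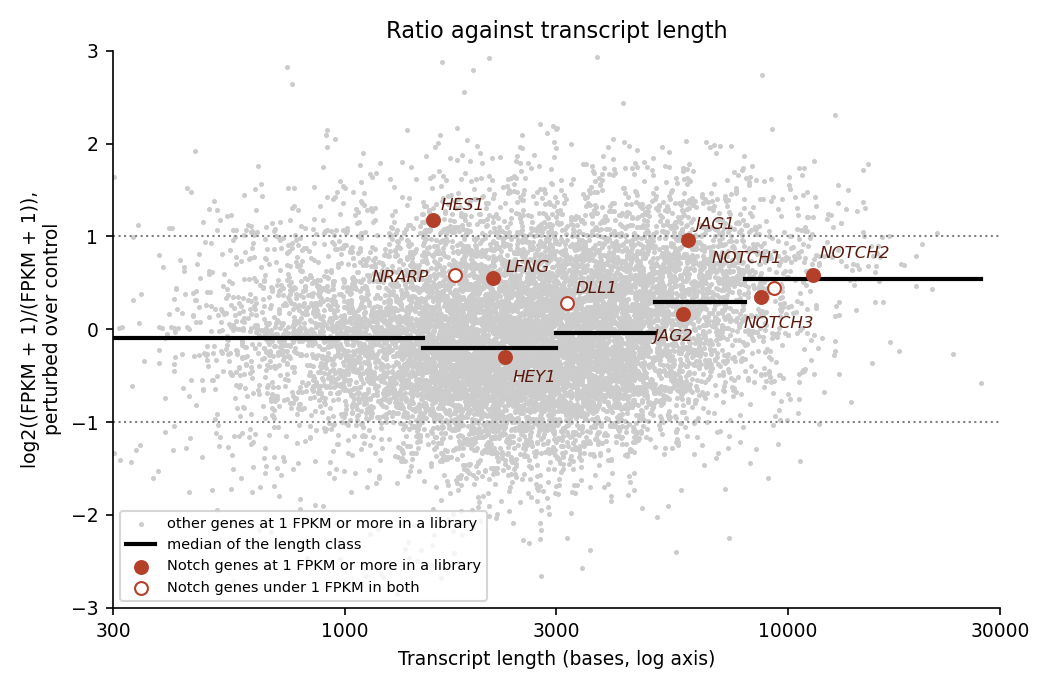
The log2 ratio with a pseudocount of 1 FPKM against transcript length on a log axis for genes at 1 FPKM or more in a library, with 24 of them beyond the limits of 3 not drawn. Black lines are medians of length classes from -0.20 to 0.54, dotted lines mark 2-fold, filled red points are Notch genes in the tested set and open ones are under 1 FPKM in both libraries.

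The trends were cubic, fitted to 11292 tested genes and applied also to the 3 members under 1 FPKM. With them removed, HES1 was at 1.35 and JAG1 at 0.66, LFNG at 0.29 and NRARP at 0.01. The other 6 members were below 0. NOTCH1 was at -0.44, NOTCH3 at -0.40 and NOTCH2 at -0.06. Over all 11292 genes the median of these values was -0.08. Of those 6 members, only NOTCH2 and DLL1, the latter at -0.03, lay above that median. The 10th and 90th percentiles over all 11292 genes were -0.88 and 0.76. HES1 lay above the 90th percentile, and the other 9 members lay between both percentiles.

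**Figure D4:**
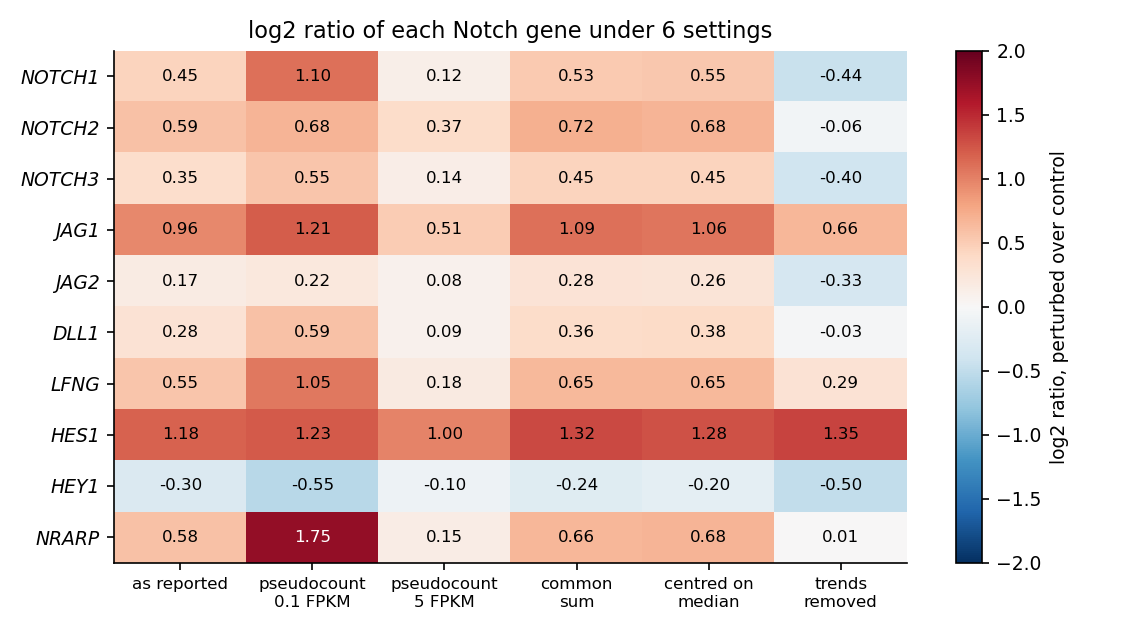
Log2 ratio of each Notch gene, perturbed over control, as reported and under 5 alternatives, with red above 0 and blue below. HES1, JAG1, LFNG and NRARP stay above 0 in every column, NRARP at only 0.01 with trends removed, and HEY1 stays below. NOTCH1, NOTCH2, NOTCH3, JAG2 and DLL1 turn below 0 with trends removed.

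Of 71 Notch pathway genes, the 10 members included, 56 reached 1 FPKM in a library, with 8 higher, 1 lower and 47 within 2-fold. Beside 7.85% and 7.61% over all tested genes, the 61 genes that are not members had 7 higher and 1 lower of 49 tested. Their median log2 ratio over tested genes was 0.35, against -0.06 over all genes tested. All 71 list genes had 44 ratios above 0 and 24 below among the 68 detected, but 30 above and 37 below among 67 with trends removed. That is 64.7% and 44.8% above 0, against 51.6% of all detected genes and 45.2% of tested genes with trends removed.

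In the nucleus, RBPJ, the DNA-binding partner of activated Notch, was at 11.3 FPKM in perturbed cells and 3.34 in control cells, 3.38-fold higher (2.72 to 4.22). The acetyltransferase genes CREBBP (2.17 and 0.603 FPKM) and KAT2B (1.27 and 0.263 FPKM) missed the rule, with log2 ratios of 0.98 and 0.85 after the pseudocount. The coactivator MAML1 was at 4.21 and 2.52 FPKM. SNW1, the most abundant gene of that group and a splicing factor that also binds the Notch complex, was at 37.8 and 44.5 FPKM.

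Corepressor genes had 2 higher and none lower of 12, beside 7.85% higher and 7.61% lower over all tested genes. NCOR1, a scaffold that carries histone deacetylases, was at 12.8 FPKM in perturbed cells and 2.78 in control cells, 4.61-fold higher (3.94 to 5.41). CTBP2, a second corepressor, was at 18.4 and 4.61 FPKM, 3.99-fold higher (3.08 to 5.17). SPEN, a further corepressor, was at 3.11 and 1.14 FPKM and missed the rule at a log2 ratio of 0.94. The deacetylase HDAC1 was the most abundant of them at 95.8 and 117 FPKM. Genes on opposite strands overlap exons of NCOR1 and CTBP2.

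Genes of receptor turnover had 2 higher and none lower of 7, again beside 7.85% and 7.61%. FBXW7, the ubiquitin ligase subunit that targets the Notch intracellular domain for degradation, was at 2.41 FPKM in perturbed cells and 0.131 in control cells, 18.4-fold higher (7.08 to 71.2). DTX4, a Deltex ubiquitin ligase, was at 1.74 and 0.0852 FPKM, 20.4-fold higher (5.97 to 92.0). The control values of both rested on few fragments, about 4 and 3. Both have opposite-strand neighbours that overlap an exon. DTX2, the most abundant of this group, was at 13.1 and 14.3 FPKM.

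Of the receptor proteases, ADAM17 was at 6.40 FPKM in perturbed cells and 2.40 in control cells, 2.66-fold higher (2.08 to 3.43). ADAM10, the main protease of ligand-induced cleavage, was at 5.04 and 2.58 FPKM. FURIN, which cuts the receptor precursor, was at 3.08 and 5.84 FPKM. Genes on the opposite strand overlap exons of ADAM17.

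Gamma-secretase held the single lower gene of the pathway list. NCSTN, the nicastrin subunit, was at 24.1 FPKM in perturbed cells and 61.8 in control cells, 2.56-fold lower (2.33 to 2.82). All 6 subunit genes had a ratio below 0, and 5 of 6 did with the common sum or the centring. The catalytic subunit gene PSEN2 was at 10.6 FPKM in the perturbed library, against 16.1 FPKM in the control. PSENEN was the most abundant subunit transcript at 574 and 718 FPKM. An exon of COPA, on the opposite strand, overlaps NCSTN.

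The tested ligand-modifying and glycosylation genes other than RFNG lay within 2-fold by the rule. NEURL1, a ligase for ligand endocytosis, was at 19.1 FPKM in perturbed cells and 24.3 in control cells. POFUT1, which adds the O-fucose that fringe enzymes extend, was at 29.1 and 39.1 FPKM. The non-canonical ligand DLK2 was at 5.39 and 4.11 FPKM.

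Other genes of the target list went both ways. HES4 was at 5.43 FPKM in perturbed cells and 2.32 in control cells, with a log2 ratio of 0.95. HES6, a family member that is not a usual Notch target and is known from mouse neural cells to antagonise HES1, was at 29.3 and 59.4 FPKM, with a log2 ratio of -0.997 that lay just inside the rule. HEY2 was at 2.01 and 2.19 FPKM, and HES5 was listed at 0 in both. The cyclin gene CCND1, the most abundant of this list in the perturbed library, as HES6 was in the control, was at 42.2 and 22.5 FPKM. HES1 was the only one of the 7 tested target genes past the rule.

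**Figure D5:**
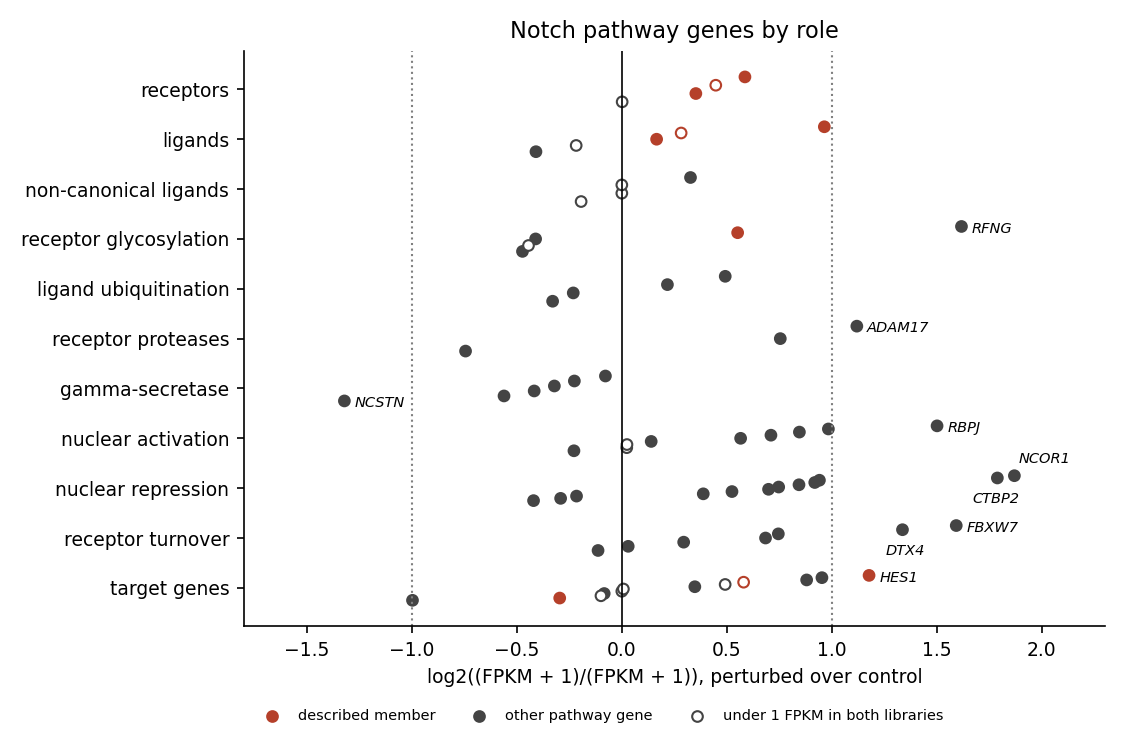
Log2 ratio with a pseudocount of 1 FPKM for 71 Notch pathway genes by role, with the 10 members in red, open points under 1 FPKM in both libraries and dotted lines at 2-fold. The 8 higher genes and NCSTN are named, and all 6 gamma-secretase genes lie below 0 here, 5 of 6 with the common sum or the centring.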

How the data were processed

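Per the labels' protocols, RNA came from a miRNeasy Micro extraction, followed by SMART-Seq HT cDNA and Nextera XT libraries. The authors deposited 1 table of FPKM per library, per the file headers. Cuffdiff 2.2.1, TopHat2 2.1.1, SAMtools 0.1.18, Bowtie2 2.2.8 and hg19 appear in the submitters' processing notes. The sources used here give neither the gene annotation nor any scaling between libraries.

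Groups came from the genotype labels. Log2 ratios, counts and the alternatives were computed with Python 3.11.15, NumPy 2.4.6, pandas 2.3.3 and SciPy 1.17.1. Low FPKM values move in steps of whole fragments, which gave the depth. Of 1129 genes under 0.3 FPKM in both libraries and above 0, 78.7% had a ratio of whole fragments, 1 to 8 each, within 0.002 on the log2 scale. Depth and a length shortening of 200 bases were chosen so that as many values of single-transcript genes as possible lay at 1 fragment. The step was run on data simulated with the same lengths and formula. Such a run cannot show whether those lengths fit the deposited values. Transcript lengths are medians of GENCODE 29 transcripts matched to RefSeq, at hand for 96.4% of tested genes. PCR copies are not independent molecules, so intervals are too narrow.

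Named genes were the members, list genes past the rule and the most abundant gene of each role. Others are given to describe their group and were chosen after their values were seen. The members, lists and alternatives were chosen with earlier results of these data known. A few genes of the lists are not reported here by name.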

Additional observations from a re-analysis of the deposited data

How the results depend on the processing

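With 1 library per group no value has a between-culture error, and leaving out a replicate was not possible. No paired analysis was possible because each group has a single library. The number of members higher was 1 as reported. It was 2 with a common sum or with centring on the median, JAG1 being added, and 3 with a pseudocount of 0.1 FPKM or a 1.5-fold rule. It was 0 with a pseudocount of 5 FPKM or a 4-fold rule, and HES1 alone with trends removed, with no filter and with 1 FPKM in both libraries. No member was lower under any of the 9 alternatives. Pathway genes higher numbered 8 as reported, 15 and 3 with pseudocounts of 0.1 and 5 FPKM, 14 with a common sum, 13 with centring, and 23 and 0 with the 1.5-fold and 4-fold rules. Pathway genes lower numbered 1 as reported, 2 with a pseudocount of 0.1 FPKM or with trends removed, and 3 and 0 with the 1.5-fold and 4-fold rules. All genes higher numbered 925 as reported, 1630 and 219 with pseudocounts of 0.1 and 5 FPKM, 557 with 1 FPKM in both libraries, and 2253 and 71 with the 1.5-fold and 4-fold rules. All genes lower numbered 897, 380 with a pseudocount of 5 FPKM, and 2505 and 84 with the 1.5-fold and 4-fold rules. With trends removed, 9 of 55 tested pathway genes were higher. Over all 11292 genes in that setting, 619 were higher and 846 were lower. The shifts with the fold rules, pseudocounts and filters follow from those settings themselves. The FPKM summed to 866143 in the perturbed library and 954761 in the control. What lies behind the shifts with the common sum, the centring and the trends with length was not tested. Members under about 25 fragments a library, DLL1, HEY1, LFNG and NRARP, are limited by depth.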
